A study of Arabidopsis thaliana with 6 samples.

Results

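CML37 (AT5G42380), CML38 (AT1G76650), ZAT10 (AT1G27730, listed as STZ in the RefSeq gene table) and WRKY53 (AT4G23810) are genes known to respond within minutes to touch, wounding and other stresses. They were chosen by name, with their higher intensities on the GA arrays of this series and the gap between its control arrays already known. The rule takes probe sets, the groups of array probes summarised to a single value, that name 1 of these genes and no other. Each gene had 1 such probe set, which makes 4 of 13286 genes with one. Because their differences between the groups led to the choice, their levels are described array by array and are not tested.

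The samples were entire Arabidopsis thaliana rosettes (Col-0), grown in soil with 16 h of light per day, in 3 groups of 2 arrays. All plants, controls included, carried 35S:HF-RPL18B, a tagged ribosomal protein driven by a promoter that is active in most cells. Control plants were untreated. PBZ plants were watered 14 days after sowing with 10 mL of paclobutrazol at 50 mg per litre, 0.5 mg per pot, which blocks gibberellin synthesis. GA plants were sprayed every other day with GA3, a gibberellin, at 50 µM, each plant receiving 1 mL. Sample titles put the harvest at day 27 and another label of the same samples puts it at day 25. The labels describe spraying for the GA plants only and no mock-sprayed group, so the hormone and the act of spraying cannot be told apart in these arrays. Replicates are called biological in the labels without further detail on their origin.

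Touch, wounding and cold raise calcium in the cytosol of plant cells within seconds. Calmodulin and calmodulin-like (CML) proteins bind that calcium and pass the signal on, and transcription factors of the zinc finger and WRKY families are switched on soon after. Transcripts of such genes are typically short-lived. CML37 is a calcium sensor linked to defence against chewing insects, and CML38 is a close relative that responds to wounding and low oxygen. ZAT10 is a zinc finger repressor induced by salt, drought, cold and strong light. WRKY53 is a regulator of leaf senescence and defence.

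Median intensity ranged from 32.4 to 33.9 over the arrays, which correlated at 0.981 to 0.988 within groups and 0.967 to 0.986 between groups (Pearson r of log2 values across probe sets). The number of arrays limits the precision. Of the tissue markers, the leaf gene RCA, for Rubisco activase, had intensities from 3858.2 to 4741.1 over the 6 arrays. The root hair expansins EXPA7 and EXPA18 had 2.5 to 17.4. These were the 1 of 8 leaf, 2 of 6 root and 0 of 8 flower markers that the platform annotation ties to a probe set naming them alone. One difference between arrays touches the results directly: control replicate 2 had higher values than control replicate 1 for each of the 4 genes.

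The calcium sensor CML37 had intensities of 5.4 and 7.7 on control replicates 1 and 2, 3.4 and 1.2 on the PBZ arrays, and 24.7 and 29.1 on the GA arrays. The GA arrays were the bright ones. The means were 2.30 ± 1.56 (SD, n = 2) in PBZ, 6.55 ± 1.63 in control and 26.9 ± 3.11 in GA. Control and PBZ lay under 10, where 26.8% to 29.4% of the probe sets of each array lie, and no detection calls were used. These values are not shown to be above background, so no direction is read between control and PBZ, and no ratio is given against them. The pseudocount of 10, added before taking log2, also compresses differences of dim probe sets on that scale. On the log2(intensity + 10) scale GA was higher by 1.16 than control (SE 0.15) and by 1.59 than PBZ (SE 0.15), and PBZ minus control was -0.43 (SE 0.15).

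CML38 had 7.3 and 16.5 on the control arrays, 14.5 and 14.4 on the PBZ arrays, and 133.8 and 90.4 on the GA arrays. The PBZ values lay between those of the control arrays, so control and PBZ were not separated. Both GA arrays lay far above the other 4. Group means were 11.9 ± 6.51 in control, 14.4 ± 0.0707 in PBZ and 112.1 ± 30.7 in GA. GA minus control was 2.49 on the log2(intensity + 10) scale (SE 0.26) and GA minus PBZ was 2.30 (SE 0.26). The ratio of mean intensities was 9.42 against control and 7.76 against PBZ. Both are above what these log2 differences give, since the control and PBZ values are close to the pseudocount. Control replicate 1, at 7.3, is not shown to be above background. Ratios of single GA arrays to single control arrays ran from 5.48 to 18.3. Of the 4 genes CML38 had the widest spread between the GA arrays, with replicate 1 at 1.48 times replicate 2.

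ZAT10 had 38.8 on control replicate 1 and 163.7 on control replicate 2, a ratio of 4.22. Its PBZ arrays had 42.8 and 43, and its GA arrays 399.7 and 411.5. Control replicate 1 was thus slightly below the PBZ arrays, control replicate 2 stood well above them, and both GA arrays were the brightest. Control had a mean of 101.2 ± 88.3, against 42.9 ± 0.141 in PBZ and 405.6 ± 8.34 in GA. GA minus PBZ was 2.97 on the log2(intensity + 10) scale (SE 0.54), and the ratio of mean intensities was 9.45. The fit uses 1 spread for all groups, so the gap between the control arrays enters that SE, while the PBZ and GA pairs of arrays alone gave differences of 2.95 to 3.00.

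How far GA lay above control for ZAT10 depended on the control array. GA was 3.09 above control replicate 1 and 1.26 above control replicate 2 on the log2(intensity + 10) scale, with a mean difference of 2.17 (SE 0.54). PBZ was 0.12 above control replicate 1 and lay 1.72 below control replicate 2 (-1.72). No direction can therefore be given for ZAT10 in PBZ against control.

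WRKY53 had 24.3 and 46.9 on the control arrays, 32.3 and 28.7 on the PBZ arrays, and 189.1 and 181.1 on the GA arrays. Its PBZ values again fell between the control values, and the GA arrays stood apart. The means were 35.6 ± 16.0 in control, 30.5 ± 2.55 in PBZ and 185.1 ± 5.66 in GA. GA minus control was 2.14 on the log2(intensity + 10) scale (SE 0.24), with a ratio of mean intensities of 5.20. GA minus PBZ was 2.27 (SE 0.24), with a ratio of 6.07.

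**Figure D1:**
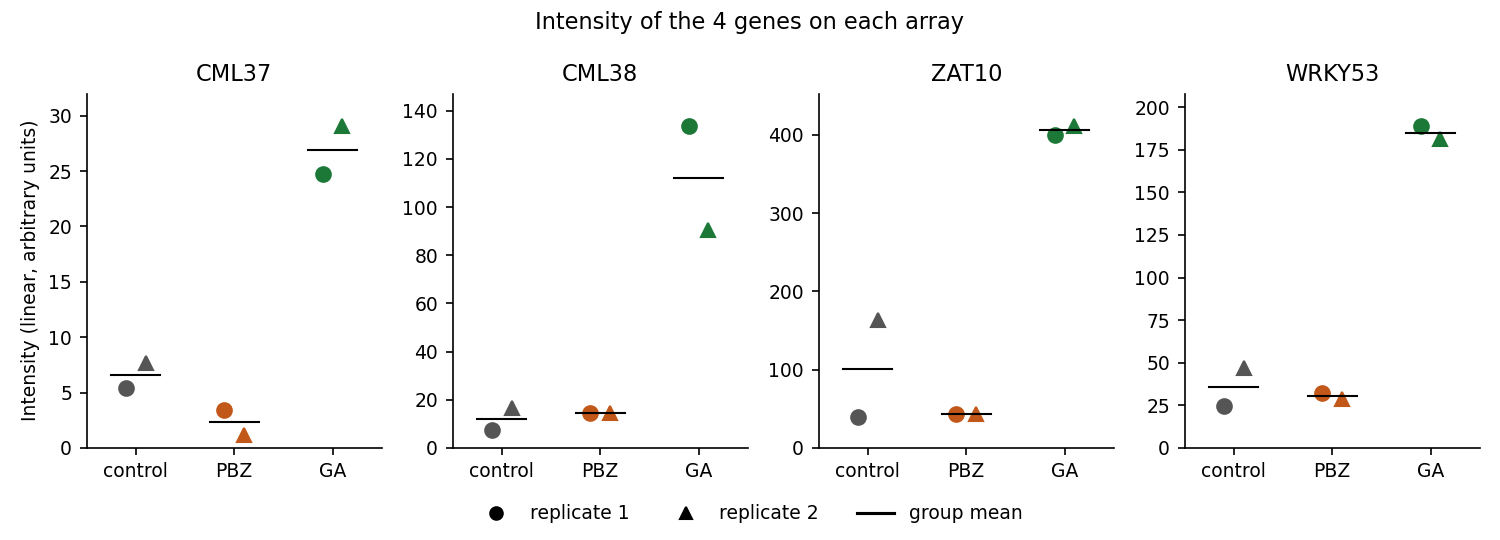
Linear intensity (arbitrary units, axis from 0, scaled per gene) of CML37, CML38, ZAT10 and WRKY53 on each array; circles are replicate 1, triangles replicate 2 and lines group means. For each gene both GA arrays lie above all control and PBZ arrays, and control replicate 2 lies above control replicate 1, most widely for ZAT10 (38.8 and 163.7).

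Set side by side, the GA arrays of all 4 genes lay above both PBZ arrays without overlap, as did 19.1% of all probe sets. Both GA arrays also lay above both control arrays for the 4 genes, and for 16.8% of all probe sets. The genes were chosen with these differences known, so nothing is read from these counts. In PBZ against control, CML37 was the 1 gene whose arrays did not overlap, with PBZ below, against 18.5% of all probe sets. Its values there were under 10, and no direction is read from values that low. For CML38, ZAT10 and WRKY53 both PBZ arrays lay between the control arrays. A stepwise order, with both control arrays above PBZ and below GA, was held by CML37 alone among the 4, and by 3.32% of all probe sets. For CML37 it rests on those low values, so nothing is read from it. The comparisons with control share the control arrays and are not independent of each other.

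**Figure D2:**
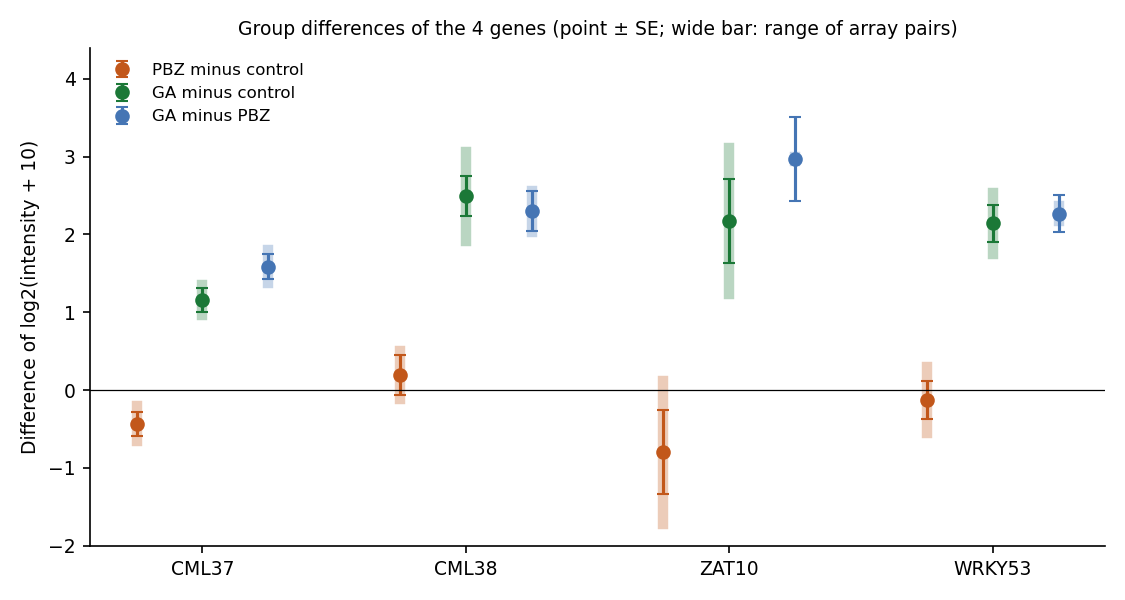
Differences of group means on the log2(intensity + 10) scale for the 4 genes, as points with SE from the limma fit (n = 2 arrays per group), over wide bars that span the differences of the 4 pairs of arrays. GA minus control and GA minus PBZ are above 0 over the whole bar for each gene, while PBZ minus control spans 0 for CML38, ZAT10 and WRKY53.

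The gap between control replicates was set beside the same gap over all probe sets. That the control arrays differ was known when the genes were chosen, so these are descriptions from which nothing is read. For ZAT10 the gap was 1.83 on the log2(intensity + 10) scale. WRKY53 had a gap of 0.73, CML38 one of 0.62 and CML37 one of 0.20, and the median size over all probe sets was 0.17. Control replicate 1 was below control replicate 2 in all 4 genes and in 49.2% of all probe sets. Between the PBZ arrays the 4 gaps were 0.0055 to 0.26 in size, and between the GA arrays 0.041 to 0.52, with median sizes over all probe sets of 0.19 and 0.15.

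**Figure D3:**
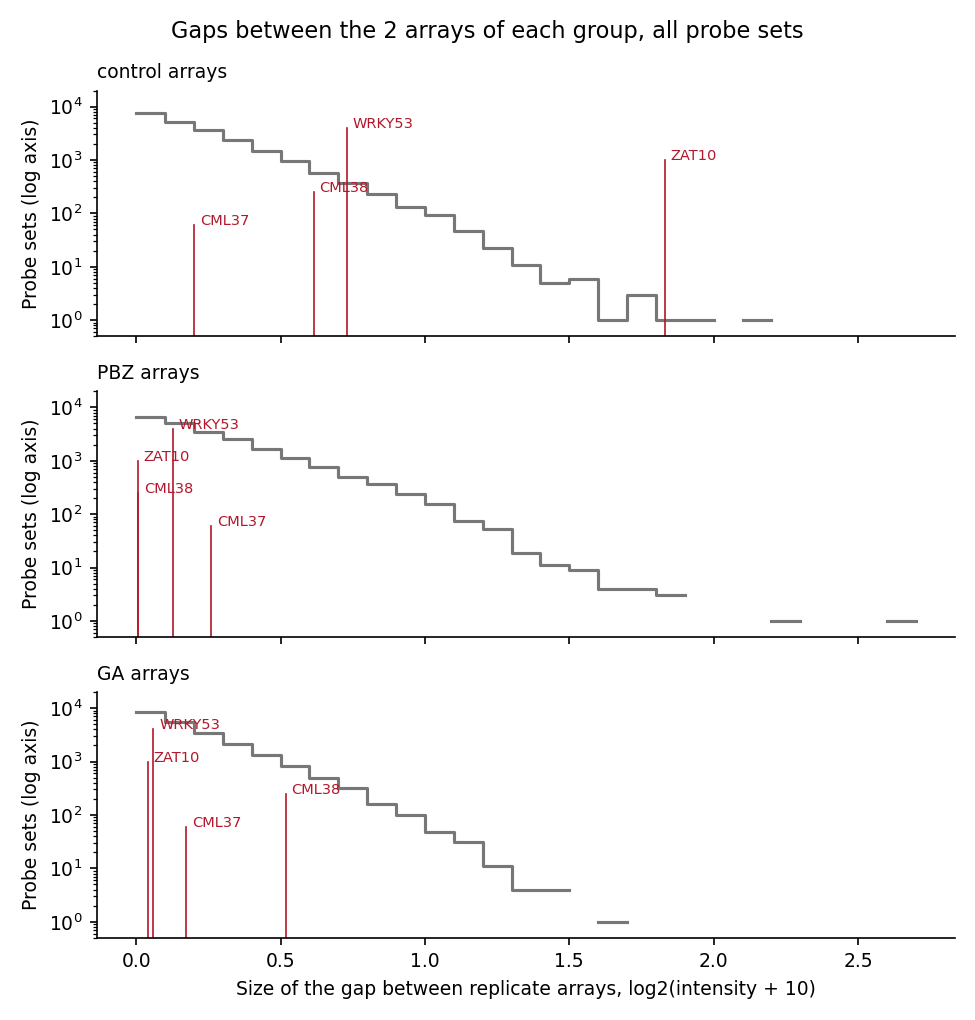
Size of the gap between the 2 arrays of each group on the log2(intensity + 10) scale (x axis), with the number of probe sets per 0.1 step as a line on a log axis and the 4 genes marked by red lines whose height carries no value. ZAT10 lies at 1.83 at the far end for the control arrays and at 0.0055 and 0.041 for the PBZ and GA arrays.

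The 2 probe sets with a wider control gap than ZAT10 both moved the same way. They are described because of that gap, a choice made with their values in view. CML23 (AT1G66400), another calmodulin-like gene, had 13.4 and 92.7 on control replicates 1 and 2, 21.5 and 6.4 on the PBZ arrays, and 89.8 and 57.3 on the GA arrays. Control replicate 2 was its brightest array. AT3G10930, a locus without a symbol in the table used here, had 4.1 and 43.3 in control, 8.5 and 12.5 in PBZ, and 90.9 and 59.3 in GA. For both genes, as for ZAT10, control replicate 1 was near the PBZ arrays and control replicate 2 was near the GA arrays or between the groups.

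Over all intensities, 128 other probe sets had control replicate 2 above replicate 1 by over 1 on the log2 scale. Of these 38 (29.7%) had both GA arrays above both PBZ arrays, against 19.1% of all probe sets, and 30 (23.4%) had them below, against 28.3%. In GA against PBZ 10 of the 128 (7.81%) passed as higher and 3 (2.34%) as lower (limma, adjusted p under 0.05), against 1.96% and 1.01% of all probe sets. Of the 59 with control replicate 1 above replicate 2 by over 1, 0 passed in either direction. Their GA minus PBZ differences ran from -1.13 to 0.82. The fit uses 1 spread for all groups, so a wide control gap raises the SE of GA minus PBZ. Selection on that gap thus makes a call less likely, and nothing is read from the shares that passed. Many of the 128 and of the 59 are dim.

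With a mean intensity of at least 20, a minimum applied to these sets after the values were seen, 46 of the 128 and 1 of the 59 were left. That mean is over all arrays, so probe sets dim elsewhere can pass through bright GA or PBZ arrays or control replicate 2. The filter can thus raise the shares below, and nothing is read from them. Of the 46, 18 (39.1%) were higher in GA than in PBZ by over 1 on the log2 scale and 7 (15.2%) lower by over 1, against 2.63% and 1.03% of all 13512 probe sets of that brightness. The probe sets with a high control replicate 2 thus included both directions, with differences from -3.65 to 4.53. Seen from the other side, control replicate 2 was above replicate 1 in 60.3% of the 441 other probe sets that passed as higher in GA than in PBZ and in 53.9% of the 230 that passed as lower, against 49.2% of all. What set the control arrays apart was not tested.

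Among those 46, 4 name a single gene that has a symbol rather than a locus code, namely CML23, ORA47, psbM and PDF1.2. ORA47 (AT1G74930), a transcription factor linked to jasmonate synthesis and wounding, had 17.1 and 46.2 on the control arrays, 15.8 and 14.8 on the PBZ arrays, and 72.8 and 55.6 on the GA arrays (GA minus PBZ 1.54, adjusted p = 0.0765, not passing). PDF1.2 (AT5G44420), a defensin of the jasmonate response, went the other way, with 96.6 and 206.1 in control, 751.2 and 1218.6 in PBZ, and 139.2 and 130.8 in GA. It fell in GA against PBZ (log2 difference -2.74, adjusted p = 0.0230). The plastid gene psbM, for a subunit of photosystem II, had 620.1 and 1291.8 in control, 2016.4 and 878.9 in PBZ, and 920.9 and 1178.8 in GA, with overlapping groups (GA minus PBZ -0.35, adjusted p = 0.767).

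**Figure D4:**
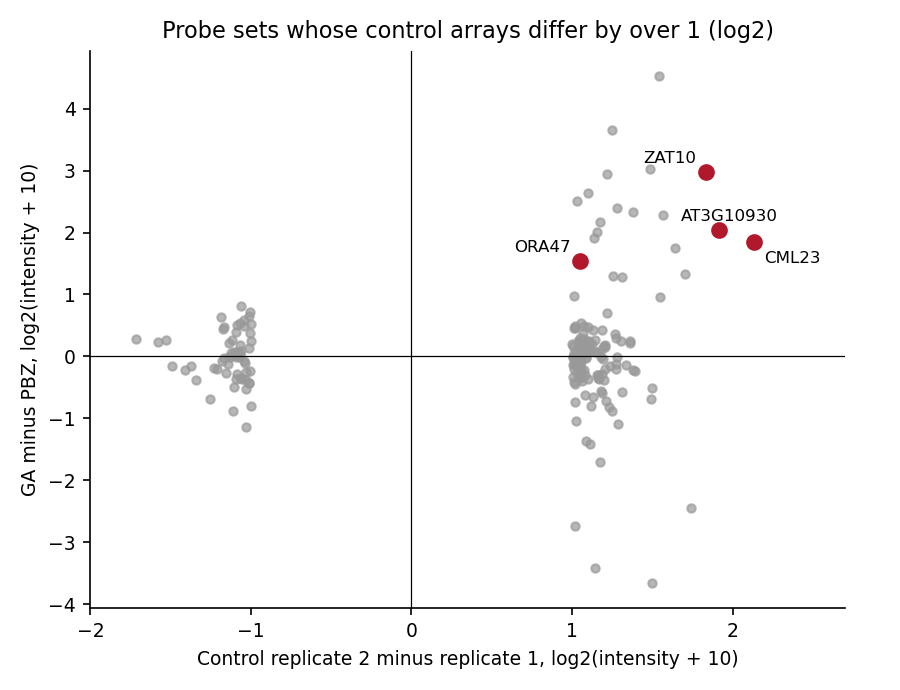
Each point is a probe set whose control arrays differ by over 1 on the log2(intensity + 10) scale, with control replicate 2 minus replicate 1 on the x axis and GA minus PBZ on the y axis. ZAT10, CML23, AT3G10930 and ORA47 are marked in red. PDF1.2 (-2.74 on the y axis) and psbM (-0.35), also named in the text, are left unmarked. Unmarked points with a high control replicate 2 run from -3.65 to 4.53 on the y axis.

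Over the 6 arrays the pairwise Pearson r of log2(intensity + 10) among the 4 genes ran from 0.912 (CML38 and ZAT10) to 0.985 (CML38 and WRKY53), which their choice for bright GA arrays largely fixes. Within the GA group they did not share an order, since CML37 and ZAT10 were higher on replicate 2 while CML38 and WRKY53 were higher on replicate 1. The GA gaps of ZAT10 (0.041) and WRKY53 (0.059) were below the median size of 0.15 over all probe sets. No difference between the genes is read from that order. Of 1016 other probe sets with a symbol and a mean intensity of at least 20, 23 (2.26%) had an r of at least 0.9 with the mean of the 4.

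The closest to that mean was SEC15B (AT4G02350), a subunit of the exocyst that tethers secretory vesicles, with r = 0.995. Its GA minus PBZ difference was small, at 0.39 on the log2 scale, with 80 and 75.8 on the GA arrays and 56.3 to 61.9 on the other 4. Next came PMEPCRF (AT5G53370) with r = 0.982 and BZIP60 (AT1G42990), a transcription factor of the endoplasmic reticulum stress response, with r = 0.978. ATPMEPCRB (AT4G02330), CSLC04 (AT3G28180), which makes the backbone of xyloglucan, EXO (AT4G08950) and the expansin-like EXLA1 (AT3G45970) had r of 0.974, 0.972, 0.963 and 0.955. SGT1A (AT4G23570), OPCL1 (AT1G20510), an enzyme of jasmonate synthesis, and the tetraspanin TET8 (AT2G23810) completed the closest 10 with 0.955, 0.952 and 0.950.

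Taken singly, the genes shared some of their nearest profiles but not all. CML37 was nearest to EXLA1 (r = 0.975), CML38 to SEC15B (r = 0.985) and then SRC2 (AT1G09070, r = 0.984), and WRKY53 to SEC15B (r = 0.994). ZAT10 was nearest to ORA47 (r = 0.978), which shares its high control replicate 2, and then to SGT1A (r = 0.977), with 160 and 200.6 on control replicates 1 and 2, 149.4 to 164 in PBZ and 223.4 to 240.4 in GA. These correlations are descriptions over 6 arrays.

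The relatives and partners of the 4 genes were taken from lists of calmodulin, calcium-decoding, zinc finger, WRKY, early stress, jasmonate, senescence, salicylate and clock genes. Of 247 listed genes other than the 4, 19 had a probe set naming them alone, so the measured genes need not represent their lists, and others may lie among the 8730 unnamed probe sets. In GA against PBZ 4 of the 19 rose and 0 fell (limma, adjusted p under 0.05 over all probe sets), where 2.97% of all probe sets passed, 1.96% of them higher and 1.01% lower. Their median difference was 0.020, against -0.047 over all probe sets. EXO and PUB23 were known from earlier results of these data to pass in this comparison when their list was written, so their calls are not independent evidence.

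Among calmodulins and calmodulin-like genes 6 of 19 were measured, and 1 rose in GA against PBZ. CML42 (AT4G20780), linked to leaf hair branching and insect defence, had 245.4 and 212.7 in control, 118.2 and 130 in PBZ, and 289.3 and 255.7 in GA. The PBZ arrays were the low ones, in contrast to CML38. CML42 was higher in GA than in PBZ (log2 difference 1.07, SE 0.14, adjusted p = 0.0210), and its PBZ minus control difference of -0.83 did not pass (adjusted p = 0.0868).

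The other measured calmodulin-like genes did not pass in any comparison. The median GA minus PBZ difference of the 6 was -0.12. CML23 had a difference of 1.85 with a wide error (SE 0.70, adjusted p = 0.243). CML41 (AT3G50770), a plasmodesmal protein described here after its values were seen, was brightest in PBZ, with 70 on both PBZ arrays, 26 and 25.5 in control, and 36.7 and 53 in GA. Its PBZ minus control difference was 1.16 (SE 0.17, adjusted p = 0.0643). CML39 (AT1G76640) is the gene next to CML38 on the chromosome by the RefSeq table and the 1 of 5 touch-list genes measured. It stayed between 0.4 and 5.9 on all arrays, with its GA arrays at 0.4 and 0.5 (GA minus PBZ -0.36, SE 0.20, adjusted p = 0.411). These values lie under 10 and are not shown to be above background, so they do not show whether CML39 moved. The median of the 6 includes it.

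Of the WRKY family 6 of 70 listed genes other than WRKY53 were measured, and 1 rose in GA against PBZ. WRKY22 (AT4G01250), known from the response to bacterial flagellin, had 9.2 and 14.5 in control, 9.8 and 6.3 in PBZ, and 28.4 and 23.6 in GA. Its GA arrays stood above the other 4, as for WRKY53. Control replicate 2 was again above replicate 1, which at 9.2 is not shown to be above background. The log2 difference was 1.00 (SE 0.18, adjusted p = 0.0490), close to the threshold, on a gene with a PBZ mean under the pseudocount. The other 5 WRKY genes had differences from -0.69 to 0.020 and did not pass, and the median of the 6 was -0.15. The -0.69 is that of WRKY42, whose GA arrays had 1.8 and 2.2, values not shown to be above background.

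Early wound and stress regulators had 4 of 33 genes measured, of which 2 rose in GA against PBZ, as did 1.96% of all probe sets. The median was 1.12. The 2 are PUB23 and EXO, known to pass when the list was written, so nothing is read from this count or median. PUB23 (AT2G35930), a ubiquitin ligase that dampens immune signalling, had 12.6 and 5.7 in control, 13.9 and 14 in PBZ, and 73.7 and 49.8 in GA. Its control replicate 2 was the lower one, at 5.7, a value not shown to be above background. No order of the control arrays is read from it. PUB23 was higher in GA than in PBZ (difference of log2(intensity + 10) 1.56, SE 0.23, adjusted p = 0.0299), with a ratio of mean intensities of 4.43.

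EXO, known as a growth gene that responds to brassinosteroid, had 59 and 87.7 in control, 37 and 30.1 in PBZ, and 405.3 and 236.7 in GA. It was higher in GA than in PBZ (difference of log2(intensity + 10) 2.88, SE 0.29, adjusted p = 0.0119), with a ratio of mean intensities of 9.57. The ligase genes PUB22 (AT3G52450) and PUB24 (AT3G11840), close relatives of PUB23, had differences of 0.67 and 0.40 and did not pass (adjusted p = 0.479 and 0.332). PUB22 had 24 and 3.8 on the GA arrays and 2 to 6.6 on the control and PBZ arrays. Its difference (SE 0.43) thus rests on GA replicate 1, with the other values under 10.

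WRKY53 acts in leaf senescence, and 3 of 10 senescence genes were measured, of which 0 passed in any comparison. SAG101 (AT5G14930), a partner of the defence regulator EDS1, had 41.7 and 44.9 in control, 35.8 and 28.5 in PBZ, and 62.9 and 56.5 in GA (GA minus PBZ 0.73, SE 0.14, adjusted p = 0.0570). The transporter gene SAG29 (AT5G13170) had -0.64 (SE 0.39, adjusted p = 0.453) and WRKY6 (AT1G62300) had -0.042 (SE 0.28, adjusted p = 0.963). SAG29 had 18.4 on PBZ replicate 1 and 0.7 to 6 on the other arrays. Its difference thus rests on that array, with the other values under 10. The median of the 3 was -0.042. One of 14 clock genes was measured, GI (AT1G22770), with 181 and 188.3 in control, 210.4 and 178 in PBZ, and 126.8 and 140.3 in GA (GA minus PBZ -0.51, SE 0.14, adjusted p = 0.130). Of the calcium decoders (73 listed), zinc finger relatives of ZAT10 (8), JAZ repressors (11) and salicylate genes (9), 0 were named alone by a probe set in the annotation used here.

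Against control, 0 of the 19 passed in either comparison. In PBZ against control, where 0.514% of all probe sets passed, 3 of the 19 were higher and 2 lower at an unadjusted limma p under 0.05, a level reached by 13.7% of all probe sets, with a median of 0.093 against 0.025 over all probe sets. In GA against control, where 0% passed, 6 were higher and 2 lower at that unadjusted level, as were 8.49% of all probe sets in either direction, and the smallest adjusted p of any probe set was 0.109. The median was 0.24 against -0.021.

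The 4 calls in GA against PBZ depended on the fit. Leaving out any 1 of the 6 arrays ended those of CML42, WRKY22 and PUB23, whose adjusted p ran up to 0.169, 0.262 and 0.177 over the alternatives tried. That of EXO ended without either PBZ array or either GA array and held without either control array (highest adjusted p 0.0991). All 4 calls also ended with a pseudocount of 1, those of CML42, WRKY22 and PUB23 in a fit of the GA and PBZ arrays alone, and that of WRKY22 with an intensity trend or with the replicate number as a block. With 1 array left out the differences ran from 0.99 to 1.16 for CML42 and 0.86 to 1.14 for WRKY22. Those of PUB23 ran from 1.32 to 1.81 and those of EXO from 2.51 to 3.26. Such fits have fewer residual degrees of freedom, and leaving out a control array does not change a GA minus PBZ difference.

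**Figure D5:**
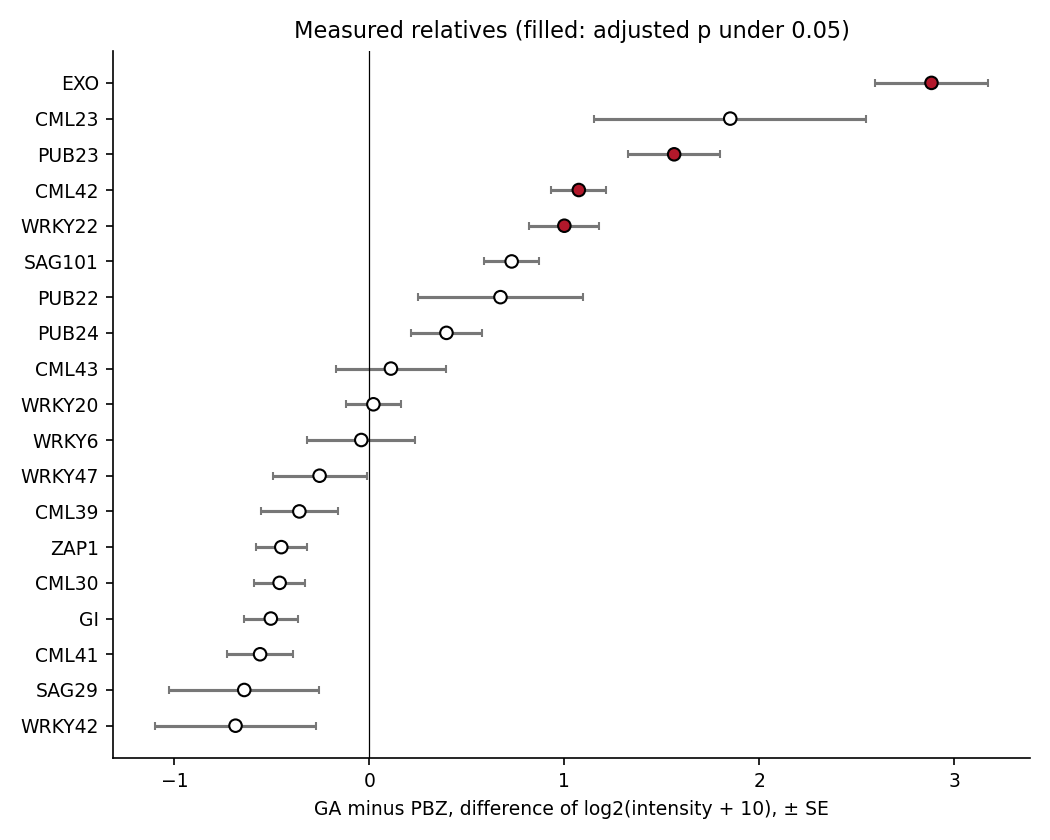
GA minus PBZ difference on the log2(intensity + 10) scale, with SE (n = 2 arrays per group), for the 19 measured relatives and partners; filled points have an adjusted p under 0.05 over all probe sets. EXO, PUB23, CML42 and WRKY22 are filled, from 2.88 down to 1.00, and the other points run from -0.69 to 1.85.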

How the data were processed

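The 4 genes and the lists were chosen with earlier results of these data known. The deposited table holds linear intensities, 1 per probe set and array, which share a common mean (100.01 in each array after trimming 2% at each end). RMA and affy are named in the submitters' processing notes. RMA gives log2 values, and the sources used here do not give how these linear intensities were made. Total RNA is named as the molecule in the labels, whose protocol also describes RNA from pulled-down ribosomes.

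Of 22810 probe sets, 64 controls were left out. The platform annotation names 1 gene for 13513, and 13436 were matched to RefSeq by Entrez number. Log2(intensity + 10) was fitted with limma 3.58.1 in R 4.3.3, all 6 arrays in 1 fit with a mean per group, then eBayes and Benjamini-Hochberg adjustment over 22746 probe sets, with two-sided tests at 0.05. Of several probe sets for a gene, the brightest was used. The 4 genes carry differences and SEs from that fit, without p-values. No table of detection calls was used. The fit was tested on simulated data.

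From each list the genes that passed are named, or the 3 with the smallest p, and for likeness the 5 (for the mean, 10) genes with the highest Pearson r; other names were added after their values were seen. Alternatives were pseudocounts of 1 and 32, quantile normalization, median centring, an intensity trend, a filter on the 40% dimmest probe sets, the replicate number as a block, fits of only the groups compared, and leaving out each array.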

Additional observations from a re-analysis of the deposited data

How the results depend on the processing

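The GA minus control and GA minus PBZ differences of CML37, CML38, ZAT10 and WRKY53 stayed above 0 under every alternative tried. That sign was largely fixed beforehand, since the genes were chosen with bright GA arrays known and these arrays did not overlap the others. Nothing is read from it. The size of the differences depended on the pseudocount, since dim values are compressed by it. With a pseudocount of 1, GA minus PBZ was 3.16 for CML37 and 2.84 for CML38, GA minus control was 1.90 and 3.20, and PBZ minus control of CML37 was -1.26. With a pseudocount of 32, GA minus PBZ was 0.78 for CML37, 1.62 for CML38 and 1.80 for WRKY53, GA minus control was 0.61, 1.71 and 1.70, and PBZ minus control of CML37 was -0.17. The gap between replicate arrays of CML37 (replicate 1 minus 2) was -0.44 in control and 1.00 in PBZ with a pseudocount of 1, and 0.093 in PBZ with 32, and that of CML38 in control was -1.08 with 1. Leaving out single arrays turned PBZ minus control of 3 genes: it ran from -0.12 to 0.50 for CML38, -1.72 to 0.12 for ZAT10 and -0.49 to 0.24 for WRKY53, the ends being the values without control replicate 1 and without control replicate 2. In the same way GA minus control ran from 1.26 to 3.09 for ZAT10 and 1.78 to 2.51 for WRKY53.

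Counts of probe sets that passed moved more. In PBZ against control the 117 became 0 and 248 with pseudocounts of 1 and 32, 333 with an intensity trend, 562 without the 40% dimmest probe sets, 47 with the replicate number as a block, 4 in a fit of these groups alone, and 0 to 4 when 1 array was left out. In GA against control the 0 became 51 with the trend, 201 without the dimmest and 1 with the block. In GA against PBZ the 675 became 94 with a pseudocount of 1, 1040 with the trend, 1368 without the dimmest, 391 with the block, 284 in a fit of these groups alone, and 0 to 284 when 1 array was left out. Of the 19 relatives, 2 passed in PBZ against control with a pseudocount of 32, with the trend or without the dimmest, and 2 in GA against control without the dimmest. In GA against PBZ the 4 became 0 with a pseudocount of 1, 1 in a fit of these groups alone and 0 to 1 when 1 array was left out. Fits of fewer arrays have fewer residual degrees of freedom; otherwise the cause was not tested. Deviations from the group mean of arrays with the same replicate number had r from -0.00077 to 0.031 across all probe sets. Such an r can miss an effect on few genes. Whether arrays of the same number shared a harvest or handling is not given in the labels and was not tested. In this balanced design the block cannot change a difference of group means.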
